A study of Setaria viridis with 9 samples.

Results

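NdhO, NdhL and NdhU are 3 nuclear-encoded subunits of NDH, the NADH dehydrogenase-like complex of chloroplasts, and their transcripts were followed through 9 leaf RNA libraries of the C4 grass Setaria viridis. The genes were taken by identifier: Entrez 117858157 (LOC117858157, SEVIR_5G467100v2) for subunit O, 117842009 (LOC117842009, SEVIR_2G210300v2) for subunit L and 117848688 (LOC117848688, SEVIR_3G376100v2) for subunit U. They are 3 of the 17987 genes in the deposited table, and each subunit has 1 row by its description. The labels give 3 groups of 3 biological replicates in cultivar ME034V-1: wild type (WT), gene-edited plants carrying null NdhO alleles (ndhO), and gene-edited plants carrying null PGR5 alleles (pgr5). All plants grew in the same chamber regime, and polyadenylated RNA came from whole leaf. No source used here gives the edits themselves, the number of edited lines behind each group or whether plants were pooled.

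The NDH complex sits in the thylakoid membrane beside photosystem I, accepts electrons from reduced ferredoxin and passes them to plastoquinone while pumping protons. This returns electrons around photosystem I and adds ATP without NADPH, and it is the counterpart of the cyclic route that needs the protein PGR5. In C4 grasses of the NADP-malic enzyme type, such as maize and sorghum, the complex is known to be concentrated in bundle sheath cells. NdhO is a small stromal-side subunit of subcomplex A. NdhL is a membrane-anchored subunit of the same subcomplex. NdhU is a J-like protein that, in Arabidopsis, belongs with NdhS and NdhT to the module where ferredoxin docks.

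The libraries held 11606570 to 18837265 counts, and the 3 genes held 262 to 13070 counts each, so counting error was small (a coefficient of variation of 6.18% at the lowest count, covering counting error only). All 11 bundle sheath markers and all 9 mesophyll markers were detected, none at 0 in every library, and each list is described where it touches a result. In whole-leaf RNA, fewer cells of a type and less RNA per cell cannot be told apart. NdhO is the gene edited in the ndhO group, so its level is also a check of the labels, and it did not follow them. Groups below are therefore named by label only, and "WT 1" stands for the library labelled WT replicate 1. Whether the count columns carry the names of the right samples cannot be told from the sources used here, and every mean, difference and p-value by label below rests on those names. PGR5 did not follow the labels either: it was lowest in ndhO 1, WT 3 and WT 2 (38.1, 42.8 and 46.5 CPM, counts scaled to library size) and lay between 249.8 and 389 CPM in the other 6 libraries.

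NdhO, given in CPM on library sizes scaled by the TMM method, stood at 44.3 in WT 1, 617 in WT 2 and 230.0 in WT 3. Under the ndhO label it stood at 245, 443 and 446 CPM for replicates 1 to 3, and under the pgr5 label at 421, 20.5 and 48.4 CPM. The low libraries were thus pgr5 2, WT 1 and pgr5 3, while every library labelled ndhO was at 245 CPM or more. Between the highest of the low libraries (48.4 CPM in pgr5 3) and the next one up (230.0 CPM in WT 3) lay a 4.75-fold gap, and no other gap between neighbouring libraries was wider for this gene. Transcripts of null alleles can persist, and whether they did in the plants labelled ndhO was not tested. The low NdhO values under WT and pgr5 are not accounted for by the labels. None of the libraries low in NdhO was among those low in PGR5 (ndhO 1, WT 3 and WT 2). The libraries ndhO 2, ndhO 3 and pgr5 1 were high in both genes.

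NdhL stood at 646, 790 and 256 CPM in the WT libraries 1 to 3, at 288, 450.0 and 567 CPM under the ndhO label, and at 515, 223 and 762 CPM under the pgr5 label. Its lowest libraries were pgr5 2, WT 3 and ndhO 1, 1 from each label, and its highest were WT 2, pgr5 3 and WT 1. NdhU stood at 686, 679 and 337 CPM under WT, at 292, 443 and 516 CPM under ndhO, and at 564, 328 and 649 CPM under pgr5. The same 3 libraries were lowest for NdhU as for NdhL, and the same 3 were highest. WT 1 and pgr5 3, where NdhO was under 50 CPM, were therefore among the libraries richest in NdhL and NdhU.

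**Figure D1:**
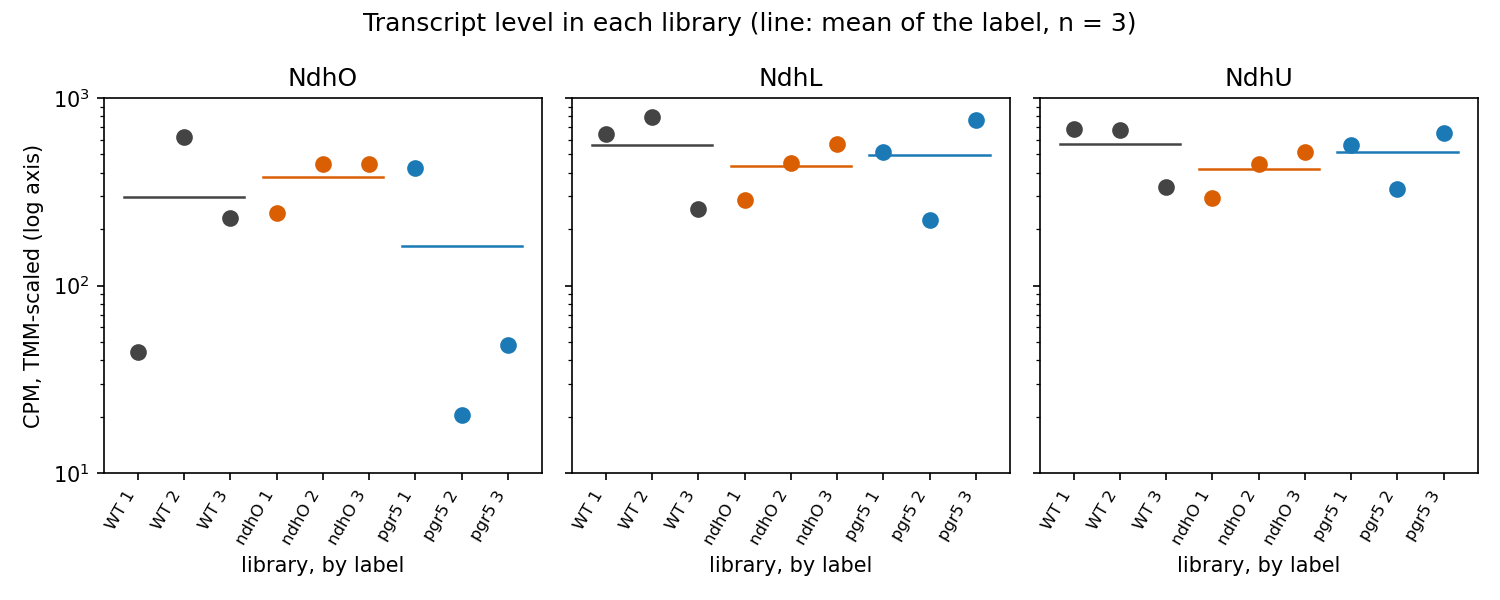
CPM on TMM-scaled library sizes (log axis) of NdhO, NdhL and NdhU in each of 9 libraries, coloured by label, with a line at the mean of each label (n = 3). NdhO lies at 20.5 to 48.4 CPM in WT 1, pgr5 2 and pgr5 3 and at 230.0 CPM or more elsewhere, while NdhL and NdhU are lowest in WT 3, ndhO 1 and pgr5 2.

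Ratios of counts inside 1 library do not depend on how libraries are scaled, and they separated the libraries more sharply than the levels did. This measure was chosen after the levels were seen. For each count of NdhL, WT 1 held 0.0686 counts of NdhO (exact 95% binomial interval 0.0639 to 0.0735), pgr5 2 held 0.0921 (0.0808 to 0.105) and pgr5 3 held 0.0636 (0.0592 to 0.0682). The other 6 libraries held 0.781 in WT 2, 0.90 in WT 3, 0.853, 0.984 and 0.786 in ndhO 1, 2 and 3, and 0.819 in pgr5 1. Nothing lay between 0.0921 and 0.781, an 8.48-fold gap. WT 3 and ndhO 1, whose NdhO levels were only 230.0 and 245 CPM, carried as much NdhO per NdhL as the libraries at 421 to 617 CPM, so their modest NdhO went with low NdhL. In pgr5 2 both were low, NdhL at 223 CPM and NdhO further still.

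The ratio of NdhO to NdhU gave the same division. It was 0.0646 in WT 1, 0.0625 in pgr5 2 and 0.0747 in pgr5 3, and ran from 0.682 in WT 3 to 1.00 in ndhO 2 in the remaining libraries. The gap between these ranges was 9.14-fold. Counts of NdhU per NdhL spread far less, from 0.851 in pgr5 3 to 1.47 in pgr5 2, a 1.73-fold range. Its top values were 1.47 in pgr5 2 (interval 1.40 to 1.55) and 1.32 in WT 3 (interval 1.26 to 1.38), where NdhL was lowest, so NdhL went lower in those libraries than NdhU did.

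**Figure D2:**
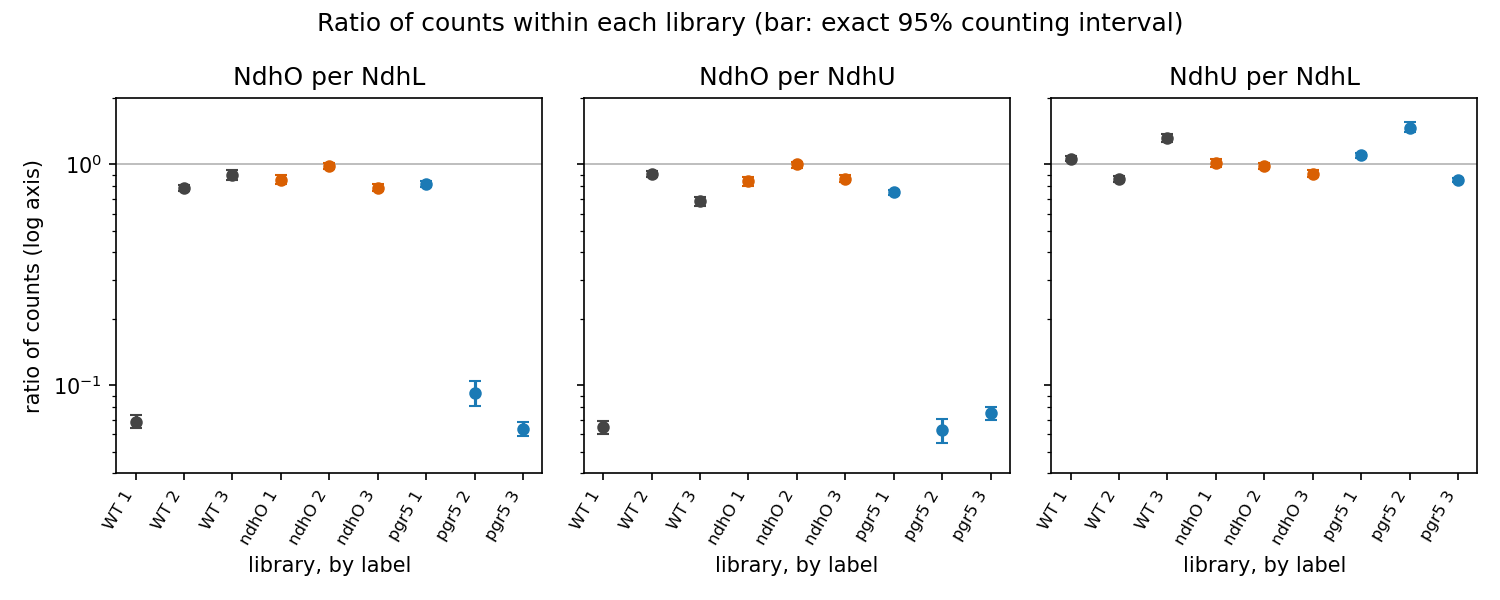
Ratio of counts of each pair of subunits within each library (log axis), with exact 95% binomial intervals that cover counting error only. Both ratios with NdhO as numerator fall below 0.1 in WT 1, pgr5 2 and pgr5 3 and lie at 0.682 or more in the other 6 libraries, while NdhU per NdhL stays between 0.851 and 1.47.

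By label, the log2 ratio of NdhO to NdhL averaged -1.46 ± 2.09 under WT, -0.20 ± 0.16 under ndhO and -2.57 ± 1.99 under pgr5 (SD, n = 3). An exact permutation test over all 280 ways of placing 9 libraries under 3 labels gave p = 0.318 for any difference among labels. The smallest p this test can give is 0.00357. For NdhO to NdhU it gave p = 0.132 and for NdhU to NdhL p = 0.711 (exact permutation), and adjusted over these 3 tests the values were 0.477, 0.396 and 0.711. For both ratios with NdhO, the SD within the WT label was larger than the difference of either other label from it.

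The wider complex places these 3 genes. A list of 21 nuclear NDH genes, defined by words in the descriptions, holds 6 core subunits, 6 of subcomplex B, 5 lumenal subunits and 4 assembly factors. Genes of the complex that are described in other words are not on it, so it need not be complete. NdhO ranged 30.1-fold from its lowest to its highest library, NdhL 3.55-fold and NdhU 2.35-fold, and the other 18 genes from 1.45-fold to 4.4-fold. In each of the 20 pairs that include NdhO, the ratio of counts varied over libraries by 14.0-fold or more (median 18.6-fold). In the 190 pairs without it the median was 2.14-fold and the highest 6.02-fold. The NdhU and NdhL pair was tighter than most of these, with 40 of the 190 pairs narrower, although that is a description of these libraries and not a test.

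The remaining core subunits on the list behaved differently from each other. NdhS (LOC117835902), the ferredoxin-docking partner of NdhU in Arabidopsis, stood at 193, 181 and 116 CPM under WT, at 101, 149 and 194 CPM under ndhO, and at 177, 107 and 207 CPM under pgr5. Its 3 lowest libraries were those of NdhU, ndhO 1, pgr5 2 and WT 3, in the same order. NdhM (LOC117864460), another subunit of subcomplex A, ranged from 365 CPM in WT 3 to 572 CPM in ndhO 2, and its lowest libraries were again WT 3, ndhO 1 and pgr5 2. NdhT (LOC117833231), a J protein of the docking module, ran from 230 CPM in pgr5 3 to 358 CPM in pgr5 1, a 1.56-fold range. NdhT was not low in WT 3 (343 CPM) or pgr5 2 (315 CPM), but only pgr5 3 was lower than ndhO 1 (277 CPM). In the docking module, NdhS and NdhU thus shared their 3 lowest libraries, of which NdhT shared only ndhO 1.

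Outside the 3 members, WT 3 was the lowest library for 13 of 18 NDH genes and among the 3 lowest for 16, ndhO 1 was among the 3 lowest for 14 and pgr5 2 for 14. The median of these 18 genes, as log2 CPM after subtracting the gene's own mean, was -0.60 in WT 3, -0.28 in ndhO 1 and -0.33 in pgr5 2, and between 0.12 and 0.40 in the other libraries. NdhL stood at -0.83, -0.66 and -1.03 on that scale in the same 3 libraries, and NdhU at -0.50, -0.70 and -0.54. Relative to the median of the 18 genes, NdhU stayed between -0.42 and 0.36 and NdhL between -0.70 and 0.48 in all 9 libraries. NdhO stood at -2.11 in WT 1, -2.72 in pgr5 2 and -2.08 in pgr5 3 relative to that median, and between 0.79 and 1.45 elsewhere.

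**Figure D3:**
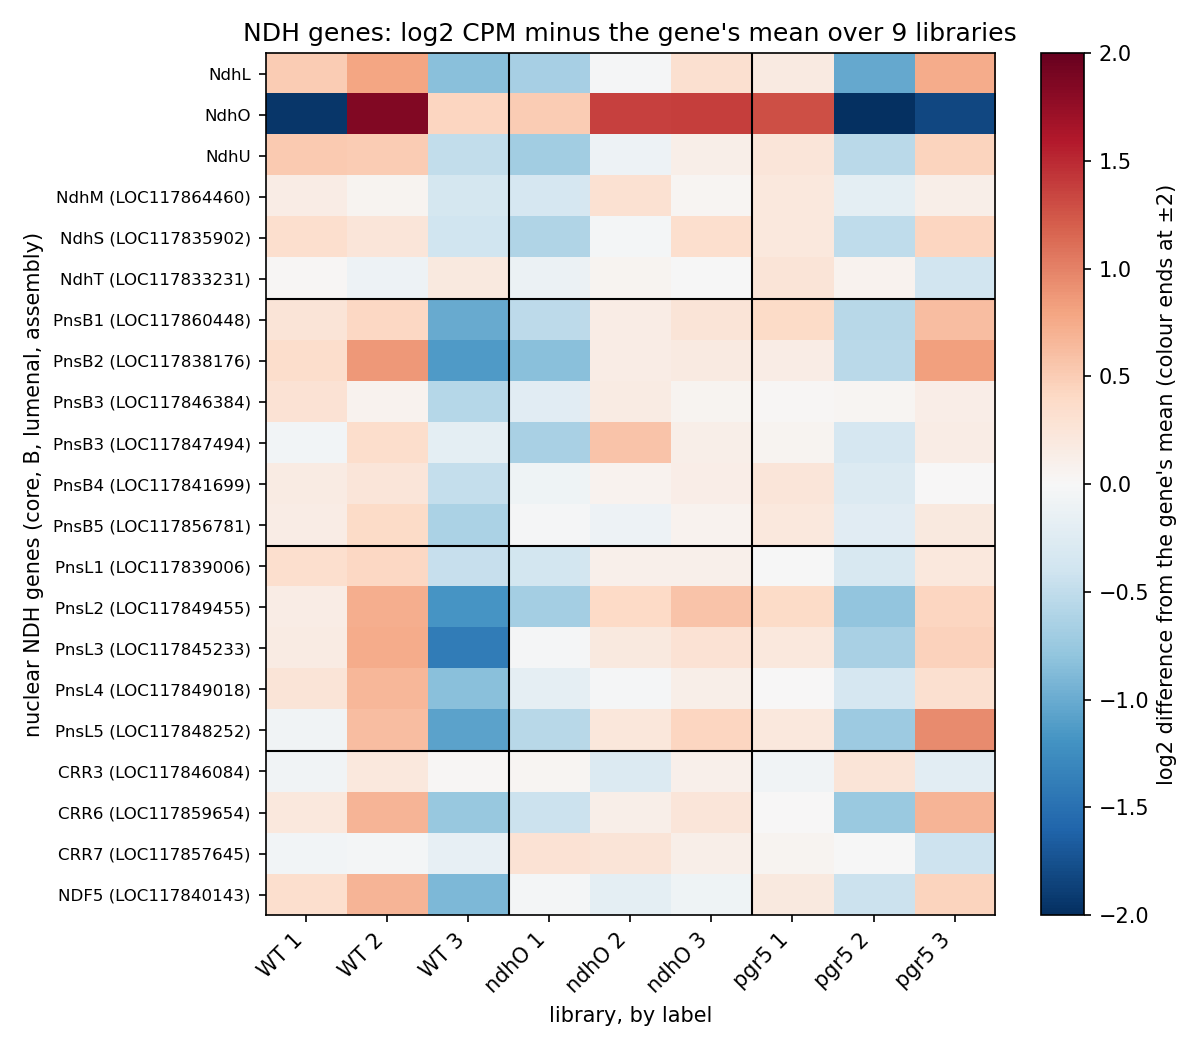
Log2 CPM of the 21 nuclear NDH genes in each library (columns, by label) minus the gene's own mean over 9 libraries, with colour ending at 2 in either direction. Columns WT 3, ndhO 1 and pgr5 2 are blue for most genes, NdhL and NdhU included, whereas the NdhO row is dark blue in WT 1, pgr5 2 and pgr5 3.

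The libraries low in NdhL and NdhU were also low elsewhere. The 9 nuclear genes of the photosystem I core, the partner of NDH in the thylakoid, had medians of -0.46 in WT 3, -0.47 in ndhO 1 and -0.17 in pgr5 2, against -0.10 to 0.39 in the other libraries. The summed level of 6 genes described as ferredoxins, the protein family that holds the electron donor of NDH, came to 223, 269 and 309.8 CPM in these 3 libraries and to 557 to 804 CPM in the rest. Most of that sum came from 1 gene, LOC117859633, which ranged from 165 to 720.3 CPM. Bundle sheath markers had medians of -0.62 in WT 3, -0.73 in ndhO 1 and -0.13 in pgr5 2, and from 0.05 to 0.35 elsewhere. Mesophyll markers had -0.11, -0.02 and -0.11 there, and from -0.13 to 0.23 elsewhere. Summed bundle sheath markers ran from 14380 to 24670 CPM under WT, 14270 to 19420 under ndhO and 20120 to 24970 under pgr5. Summed mesophyll markers ran from 70950 to 84950, 67640 to 95350 and 64680 to 85850 CPM. Single genes weighed heavily in these sums. Over the 9 libraries, an NADP-malic enzyme gene (LOC117857444) of the bundle sheath list averaged 11190 CPM. In the mesophyll list, a pyruvate, phosphate dikinase gene (LOC117850669) averaged 39400 CPM and a phosphoenolpyruvate carboxylase gene (LOC117854270) 27990 CPM. WT 3, pgr5 2 and ndhO 1 held 11606570, 12334320 and 14015773 counts, and the other 6 libraries 13641341 or more. By summed level, however, pgr5 2 was not low in bundle sheath markers, at 20120 CPM beside 19420 in ndhO 2 and 19150 in ndhO 3. Over the 9 libraries, log2 CPM had a Pearson correlation with the log2 library total of 0.60 for NdhL, 0.61 for NdhU and 0.05 for NdhO, given as a description. The part of the markers and of depth in the NdhL and NdhU levels was not tested. WT 1 and pgr5 3, with NdhO under 50 CPM, had the highest bundle sheath totals, 24670 and 24970 CPM. The library lowest in NdhO, pgr5 2, had 20120 CPM, and the highest in NdhO, WT 2, had 22900 CPM. Summed mesophyll markers came to 70950 CPM in WT 1, 64680 in pgr5 2 and 67630 in pgr5 3. They came to 67640 CPM in ndhO 1, which was not among the libraries low in NdhO, and to 78670 to 95350 CPM in the rest. The part of the markers in the NdhO level was not tested either.

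The study set plants with null NdhO alleles against wild type. Because mean NdhO was not lower under the ndhO label than under WT, the values here compare the 2 labels and are not read as an effect of losing NdhO. Here 0 of the 3 members passed edgeR's quasi-likelihood test at an adjusted p of 0.05, as did 0% of the 17970 genes tested. At an unadjusted p under 0.05 the members again numbered 0, and 2.74% of all genes passed. NdhO averaged 378 ± 115 CPM under ndhO and 297 ± 292 under WT (SD, n = 3). Its log2 difference was 0.35, with a 95% interval of -2.36 to 3.06. NdhL averaged 435 ± 140 against 564 ± 276 CPM, a log2 difference of -0.38 (interval -1.52 to 0.77). NdhU averaged 417 ± 114 against 567 ± 199 CPM, a log2 difference of -0.44 (interval -1.20 to 0.32). The edgeR adjusted p was 1.00 for each. Every interval included 0. The interval of NdhO reached past a 2-fold change in both directions, while those of NdhL and NdhU reached past a 2-fold fall but not a 2-fold rise. The NdhO difference was -0.16 without WT 1 and 1.48 without WT 2.

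In the comparison of pgr5-labelled with WT libraries, which uses the same WT libraries, NdhO averaged 163 ± 224 against 297 ± 292 CPM (SD, n = 3). Its log2 difference was -0.86 with a standard error of 1.18. Without pgr5 1 that difference was -3.11, without WT 2 it was 0.27, and the edgeR adjusted p was 1.00 in each case. NdhL differed by -0.17 with an interval of -1.32 to 0.97, from a mean of 499.7 ± 270.0 against 564 ± 276 CPM. NdhU differed by -0.14 with an interval of -0.90 to 0.61, from 513 ± 166 against 567 ± 199 CPM. None of the 3 passed at an adjusted p of 0.05 (0% of all genes) or at an unadjusted p under 0.05 (2.06% of all genes).

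Between the pgr5 and ndhO labels, NdhO had its largest difference, -1.21 on the log2 scale with an interval of -3.95 to 1.54, and an edgeR adjusted p of 1.00. Leaving out pgr5 1 gave -3.46 and leaving out pgr5 2 gave -0.69, the ends of the leave-one-out range. NdhL and NdhU lay 0.20 and 0.30 higher under pgr5, with intervals of -0.94 to 1.34 and -0.46 to 1.06. The call rate was 0 of 3 members and 0% of all genes at an adjusted p of 0.05, and 0 of 3 and 2.67% at an unadjusted p under 0.05. Testing all 3 labels together gave unadjusted edgeR p-values of 0.610 for NdhO, 0.766 for NdhL and 0.449 for NdhU, each with an adjusted p of 1.00. The order of label means was ndhO, WT, pgr5 for NdhO and WT, pgr5, ndhO for both NdhL and NdhU, and no neighbours in either order differed by more than the larger of their SDs. For 0 of the 3 members did the libraries of a pair of labels fail to overlap; across all genes they failed to in 8.63% for ndhO against WT, 6.32% for pgr5 against WT and 8.25% for pgr5 against ndhO.

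**Figure D4:**
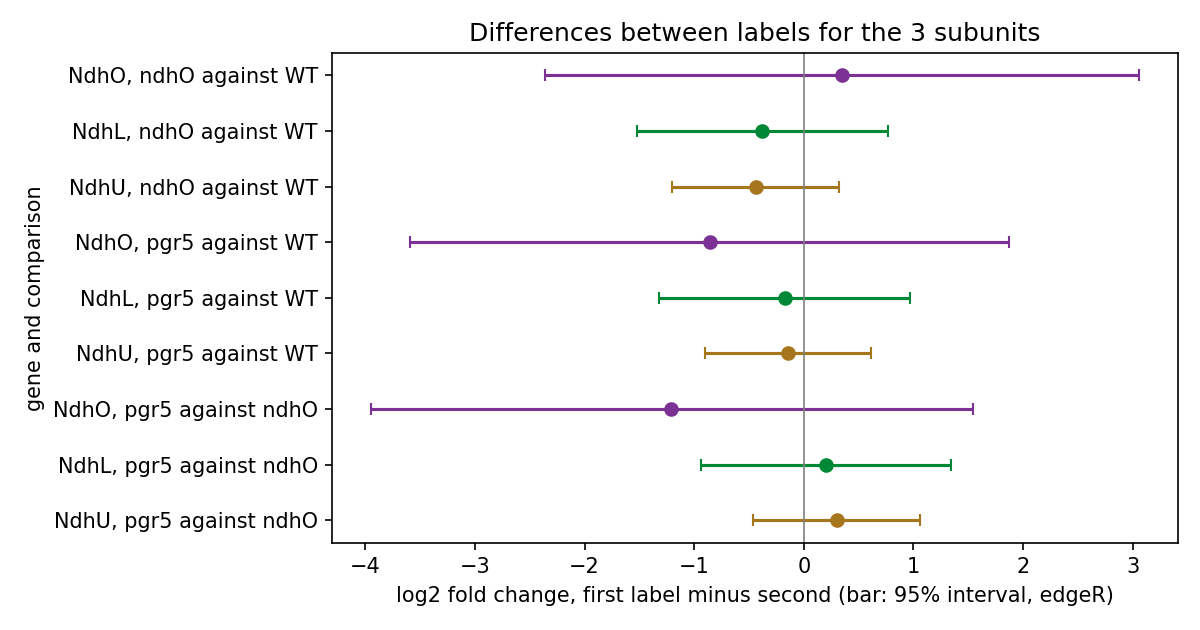
Log2 fold change between labels (first label minus second) for NdhO, NdhL and NdhU in 3 comparisons, with 95% intervals from edgeR's fit over 9 libraries. All 9 intervals include 0, and those of NdhO, such as -2.36 to 3.06 for ndhO against WT, are the widest.

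The other 18 NDH genes gave 0 calls at an edgeR adjusted p of 0.05 in any comparison, with median log2 differences of -0.03 for ndhO against WT, -0.01 for pgr5 against WT and 0.04 for pgr5 against ndhO, beside 0.00, 0.00 and 0.01 over all genes tested. Of the genes with the highest mean CPM in each subgroup, PnsB5 (LOC117856781, subcomplex B) ranged from 490.0 to 988 CPM, PnsL1 (LOC117839006, lumenal) from 369 to 677 CPM and NDF5 (LOC117840143, assembly) from 42.0 to 126 CPM. The assembly factor CRR7 (LOC117857645), named after its values were seen, was the 1 gene of these 18 whose libraries did not overlap between a pair of labels, in ndhO against WT (8.63% of all genes) and in pgr5 against ndhO (8.25% of all genes). It stood at 98.2, 96.5 and 87.1 CPM under ndhO, at 77.4, 78.2 and 72.1 CPM under WT, and at 83.5, 80.1 and 60.3 CPM under pgr5. The log2 difference was 0.31 (standard error 0.15) for ndhO against WT and -0.33 (0.15) for pgr5 against ndhO, comparisons that share the ndhO libraries. The unadjusted edgeR p was 0.0651 and 0.049, and the adjusted p was 1.00 in both.

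Among the 1430 genes with a mean of at least 100 CPM, the median range over 9 libraries was 1.64-fold. NdhO had a wider range than all but 1 of them (LOC117837767, a BAG family chaperone regulator at 36.0 to 1560 CPM, named after its values were seen). One gene had a wider gap between neighbouring libraries than the 4.75-fold gap of NdhO, and that was PGR5, with 5.37-fold. NdhL had 7.62% of these genes above it in range and NdhU 18.4%. The spread of NdhO under its labels gave it a biological coefficient of variation of 0.914 in the edgeR fit, against 0.430 for NdhL, 0.305 for NdhU and 0.383 for all genes in common.

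**Figure D5:**
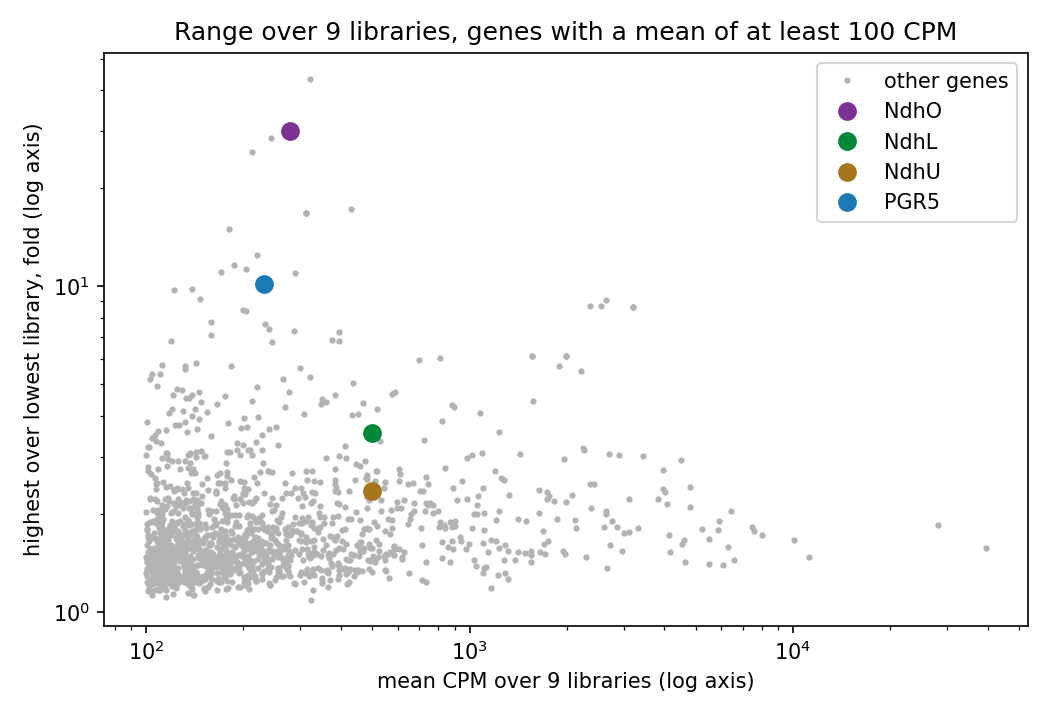
Highest over lowest library (fold, log axis) against mean CPM over 9 libraries (log axis) for the 1430 genes with a mean of at least 100 CPM, with NdhO, NdhL, NdhU and PGR5 marked. NdhO at 30.1-fold and PGR5 at 10.2-fold stand above most genes, and NdhL (3.55-fold) and NdhU (2.35-fold) lie nearer the median of 1.64-fold.

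The genes next to the members on the chromosome, by RefSeq order, were looked up as a further description. The measured neighbours of NdhO, a phosphatidylserine decarboxylase gene (LOC117856955) and a gamma-secretase subunit gene (LOC117858158), ranged 1.39-fold and 1.5-fold over the 9 libraries. In WT 1, pgr5 2 and pgr5 3 they stood at 24.6, 25.0 and 21.9 CPM and at 13.0, 15.3 and 13.9 CPM, within ranges over all 9 libraries of 21.9 to 30.4 and 10.6 to 15.8 CPM. Neither neighbour fell in these libraries by as much as NdhO did, although LOC117856955 had its lowest value in pgr5 3. The neighbours of NdhU (LOC117849873 and LOC117848687) ranged 2.40-fold and 2.74-fold. Beside NdhL, LOC117843891 ranged 2.04-fold and LOC117845325 was at 0 counts in 4 libraries.

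Genes with the most similar profile were ranked among 9556 other genes with a mean of at least 10 CPM, by Pearson's r of log2 CPM over 9 libraries, as a description without a test. For NdhL the closest were soluble inorganic pyrophosphatase 6 (LOC117839486, r = 0.989), a SHORT HYPOCOTYL IN WHITE LIGHT 1-like gene (LOC117837625, 0.986), the NDH assembly factor CRR6 (LOC117859654, 0.977), an outer envelope pore protein gene (LOC117835749, 0.973) and L-ascorbate peroxidase 8 (LOC117859935, 0.971). NdhU came 23rd for NdhL, at r = 0.954. For NdhU the closest were the kinase SAPK2 (LOC117842756, 0.966), an ACT domain protein (LOC117860471, 0.964), cystathionine beta-lyase (LOC117852572, 0.963), NdhS (LOC117835902, 0.956) and a ferredoxin (LOC117859633, 0.954), with NdhL 6th at 0.954. Of the 50 genes nearest to NdhL, 30 carried the words chloroplastic, photosystem or chlorophyll in their description, and 24 of the 50 nearest to NdhU did, beside 10.4% of all genes ranked. NdhO ranked 3292nd for NdhL, with r = 0.226, and 4142nd for NdhU, with r = 0.073.

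The profiles nearest to NdhO were of another kind, and only 1 of its nearest 50 carried those words. They were a 14 kDa zinc-binding protein gene (LOC117838228, r = 0.990), the AP-4 complex subunit mu (LOC117841955, 0.968), the uncharacterized LOC117842588 (0.965), a stress-response A/B barrel gene (LOC117842826, 0.957) and a copper transport protein CCH-like gene (LOC117838900, 0.954). Spearman's rho with NdhO ran from 0.783 to 0.95 for these 5 genes. NdhO falls into a low and a high set of libraries, and r was not computed within either. The zinc-binding protein gene stood at 115, 109 and 121 CPM in those libraries and at 145 to 173 CPM in the other 6. The CCH-like gene stood at 28.1, 29.7 and 51.6 CPM there and at 85.8 to 182 CPM in the rest, and LOC117842588 at 98.5, 77.5 and 125 CPM there and at 160 to 306 CPM in the rest. The sets did not overlap in these genes, which were picked for that likeness out of 9556.

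The authors' deposited table gave its own test values for the members beside corrected log2 CPM values. Its headers do not say whether the test was run on the corrected values. In the authors' deposited table NdhO had a log2 fold change of 0.79 for ndhO against WT (adjusted p = 0.898) and -1.77 for pgr5 against WT (adjusted p = 0.401). NdhL had -0.49 (0.858) and -0.86 (0.366) there, and NdhU -0.58 (0.755) and -0.65 (0.306), in the authors' deposited table. That table listed 0% of its genes under an adjusted p of 0.05 for ndhO and 2.51% for pgr5, and 0 of the 3 members in either. The authors' corrected values stood above the log2 CPM computed here by 0.22 for NdhO, 0.33 for NdhL and 0.26 for NdhU in all WT libraries, ndhO 1 and ndhO 2, and below it by nearly the same amounts in ndhO 3 and all pgr5 libraries. For NdhL the mean log2 difference between pgr5 and WT was -0.19 before that shift and -0.85 after it, and for NdhU it was -0.13 before and -0.65 after. In NdhO the same difference went from -1.30 to -1.74. For all 3 members, the corrected value of ndhO 3 differed by 0 from the mean of corrected ndhO 1 and ndhO 2. Only the ndhO label had libraries moved in both directions, and the pgr5 libraries moved down by nearly the amount that ndhO 3 did. The part of ndhO 3 in the authors' pgr5 values was not tested.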

How the data were processed

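Polyadenylated leaf RNA went through a stranded kit and paired-end sequencing, per the labels' protocols. Tools named in the submitters' processing notes are limma 3.62.2, edgeR 4.4.1, StringTie 2.2.3, Trim Galore 0.6.7 and FastQC 0.11.9. The sources used here give neither aligner nor genome build, and coordinates are left out for that reason. The authors deposited a single table with a count column for each library, per the file headers, and its whole numbers were used unchanged. Per the file headers it also holds the authors' corrected log2 CPM and log2 fold changes, t and B statistics (treated as a score and not used), and the authors' p-values. Columns for edited plants have an additional number in their names and were matched by genotype and last number.

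Counts were fitted in R 4.3.3 with edgeR 4.0.16 (TMM scaling, default low-count filter, robust quasi-likelihood, genotype only, 9 libraries). P-values were adjusted by Benjamini-Hochberg over 17970 genes with a threshold of 0.05, and intervals are 95%. The procedure was run on simulated counts with planted changes as a check of the code, and the share recovered is not reported here. Alternatives were other scalings and filters, DESeq2 1.42.0, limma-voom (limma 3.58.1), fits of 2 groups, a replicate block, and each library left out in turn. For pairs of labels, 3 libraries a side, exact permutation cannot go below p = 0.1 and was not run. Replicates are those the labels call biological.

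The members and lists were chosen with earlier results of these data known. Named genes are the members, PGR5, the gene of highest mean CPM in each NDH subgroup, the 5 nearest profiles of each member, and neighbours in the order of RefSeq assembly GCF_005286985.2, to which 17558 of 17987 genes matched. NdhM, NdhS and NdhT were added after their values were seen, and any other such gene is marked in the text. Transcript lengths were not used here. Choices by highest mean CPM and shares of summed CPM therefore follow read counts, and levels are not otherwise compared between genes. Near-identical copies could share reads.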

Additional observations from a re-analysis of the deposited data

How the results depend on the processing

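The 3 members stayed short of an adjusted p of 0.05 in every comparison and under every alternative run, with a lowest adjusted p of 0.986. Their directions held under the other scaling, both filters, DESeq2, limma-voom, fits of only the labels compared and the replicate block. The largest of these shifts came with limma-voom, which gave NdhO 0.94, -1.34 and -2.27 for ndhO and pgr5 against WT and pgr5 against ndhO, and NdhL 0.06 in the last. For ndhO and pgr5 against WT and for pgr5 against ndhO, in that order, edgeR called 0 genes each (493, 371 and 480 at an unadjusted p under 0.05), limma-voom 0 each, and DESeq2 16, 6 and 12; the cause was not tested. Leaving out 1 library gave ranges of -0.16 to 1.48 for NdhO in ndhO against WT, -3.46 to -0.69 for NdhO in pgr5 against ndhO, -3.11 to 0.27 for NdhO, -0.61 to 0.18 for NdhL and -0.41 to 0.10 for NdhU in pgr5 against WT, and -0.24 to 0.55 for NdhL in pgr5 against ndhO. Directions turned without WT 1 (NdhO in ndhO against WT, NdhU at 0.02 in pgr5 against WT), WT 2 (NdhO at 0.27, NdhL at 0.16 and NdhU at 0.01 in pgr5 against WT), pgr5 2 (NdhL at 0.18 and NdhU at 0.10 there), and, for NdhL in pgr5 against ndhO, without ndhO 1 (-0.02) or pgr5 3 (-0.24). With the replicate block NdhO differed by 0.40, -1.11 and -1.51 in the 3 comparisons and 0 genes were called. Libraries share only a number: same-numbered libraries had correlations of their deviations from -0.38 to 0.06, and 0 of 9 correlated best with its own number. The ratio of NdhO to NdhL ranged 14.2-fold to 15.5-fold with any 1 library left out, an alternative added after seeing the data. Several libraries lay on each side of the gap in this ratio, so leaving out 1 could change the range little. By Spearman's rho, 1 of the 5 nearest profiles of NdhO and 0 of those of NdhL and NdhU came among the first 5 again.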
